A study of Homo sapiens with 8 samples.

Results

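The constitutive proteasome genes were followed in FAIRE-seq data from U2OS cells, a human osteosarcoma line. They were taken as the protein-coding genes of GENCODE 44 whose symbol is PSMA, PSMB, PSMC or PSMD followed by a number, without the immunoproteasome genes PSMB8, PSMB9 and PSMB10. This gave 36 of the 19970 protein-coding genes on chromosomes 1 to 22 and X, with 8 PSMA, 8 PSMB, 6 PSMC and 14 PSMD genes. FAIRE-seq recovers DNA that escapes crosslinking to nucleosomes, so a peak marks open chromatin. A gene was counted as open in a library where a peak lay within 500 bp of one of its transcription start sites (TSSs), and its strongest such peak gave its values.

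The 8 libraries came from 4 single clones, WT_4 and WT_5 (wild type, WT) and KO_C5 and KO_D2 (ZBTB48 knockout, KO). ZBTB48 is a zinc finger protein that binds telomeres and some promoters. From every clone 1 library was made untreated and 1 after 250 U/ml interferon gamma (IFNγ). The labels put this treatment at 24 hours and the paper at longer. No WT clone has a KO partner, and with 2 clones a genotype the spread between clones sets the main tests. On chromosomes 1 to 22 and X, the part used here, the lists held between 16730 and 37533 peaks. Of the promoters that mark bone-forming or mesenchymal cells, VIM and RUNX2 were open in 8 libraries, COL1A1 in 7, SPARC in 5, TWIST1 in 1 and COL1A2 in 0. Promoters of other cell types were open in 0 libraries for PTPRC, CD3E, KRT20 and ALB, while the epithelial gene EPCAM was open in 8. The ZBTB48 promoter was itself open in 8 libraries and so does not check the knockout. The promoter of MTFP1, a gene whose promoter ZBTB48 is known to bind, was open in 3 of 4 WT and 0 of 4 KO libraries.

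The proteasome degrades proteins tagged with ubiquitin. Its core is a stack of rings, with outer α rings built from PSMA proteins and inner β rings built from PSMB proteins, of which PSMB5, PSMB6 and PSMB7 carry the catalytic sites. The regulatory particle that feeds the core holds the PSMC ATPases, which unfold substrates, and the PSMD subunits, which bind and remove ubiquitin or scaffold the complex. Most of these genes are housekeeping genes with matched expression in nearly all cells. IFNγ is known for inducing the immune forms PSMB8, PSMB9 and PSMB10, which replace the constitutive catalytic subunits. All genes taken here are called subunit genes below, with the assembly chaperones PSMD5, PSMD9 and PSMD10 among them.

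Promoters of subunit genes whose peak was missing from some libraries are shown first, as the 250 bases before the RefSeq TSS (GRCh38.p14), 5′ to 3′ on the strand of the gene. CG dinucleotides are in capitals. PSMB5, PSMB4, PSMC1 and PSMD10 lacked a peak in at least 1 library and are in the set of RefSeq promoters used here. PSMC2, whose peaks lie at another start, is not shown. The contrast is PSMD2, chosen after its values were seen, which had the highest mean rank of all members.
PSMB5 promoter, chr14:23035221-23035470, strand minus: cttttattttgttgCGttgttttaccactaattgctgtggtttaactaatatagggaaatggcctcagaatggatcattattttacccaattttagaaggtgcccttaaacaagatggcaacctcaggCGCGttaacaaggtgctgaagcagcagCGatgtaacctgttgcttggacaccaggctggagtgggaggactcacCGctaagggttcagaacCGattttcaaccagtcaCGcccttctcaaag
PSMB4 promoter, chr1:151399323-151399572, strand plus: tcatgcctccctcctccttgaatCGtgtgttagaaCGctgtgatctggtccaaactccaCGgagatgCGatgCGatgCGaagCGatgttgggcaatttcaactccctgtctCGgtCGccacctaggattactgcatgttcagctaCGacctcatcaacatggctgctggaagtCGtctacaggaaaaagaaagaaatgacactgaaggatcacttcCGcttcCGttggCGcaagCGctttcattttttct
PSMC1 promoter, chr14:90256303-90256552, strand plus: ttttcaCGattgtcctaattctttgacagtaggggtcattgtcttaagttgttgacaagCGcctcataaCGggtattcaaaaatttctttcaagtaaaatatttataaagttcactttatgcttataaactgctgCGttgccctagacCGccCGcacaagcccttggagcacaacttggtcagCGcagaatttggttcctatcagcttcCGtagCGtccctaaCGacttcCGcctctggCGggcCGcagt
PSMD10 promoter, chrX:108091543-108091792, strand minus: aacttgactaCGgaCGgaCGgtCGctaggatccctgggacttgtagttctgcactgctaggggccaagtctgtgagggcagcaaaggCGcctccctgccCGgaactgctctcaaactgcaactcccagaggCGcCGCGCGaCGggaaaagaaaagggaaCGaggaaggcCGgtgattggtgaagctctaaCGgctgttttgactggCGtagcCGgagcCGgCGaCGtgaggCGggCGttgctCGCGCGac
PSMD2 promoter, chr3:184298991-184299240, strand plus: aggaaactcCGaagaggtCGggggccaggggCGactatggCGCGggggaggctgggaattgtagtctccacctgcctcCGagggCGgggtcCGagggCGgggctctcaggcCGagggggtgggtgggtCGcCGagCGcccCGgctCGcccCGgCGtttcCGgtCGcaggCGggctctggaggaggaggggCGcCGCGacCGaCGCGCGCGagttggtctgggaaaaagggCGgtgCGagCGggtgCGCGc
The PSMB5 sequence holds 7 CG dinucleotides, PSMC1 13, PSMB4 15, PSMD10 24 and PSMD2 33. Their content of G and C was 45.2% for PSMB5, 45.6% for PSMC1, 50% for PSMB4, 62% for PSMD10 and 74.4% for PSMD2.

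Promoter peaks were counted first, to ask which subunit genes were open in every clone and treatment. A peak was present in all 8 libraries for 26 of the 36 genes (72.2%), against 51.2% of all protein-coding genes. A further 8 had a peak in 1 to 7 libraries, as did 21.1% of all genes, and PSMA8 and PSMB11 had none. PSMA8 encodes the testis form of an α subunit and PSMB11 the catalytic subunit of the thymus form. The groups of subunits differed in this count. In all 8 libraries a peak was found for 7 of 8 PSMA genes (all but PSMA8), 4 of 6 PSMC genes and 13 of 14 PSMD genes, but only for PSMB2 and PSMB3 among the 8 PSMB genes. The map of ranks by library shows the gaps in the β subunits.

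**Figure D1:**
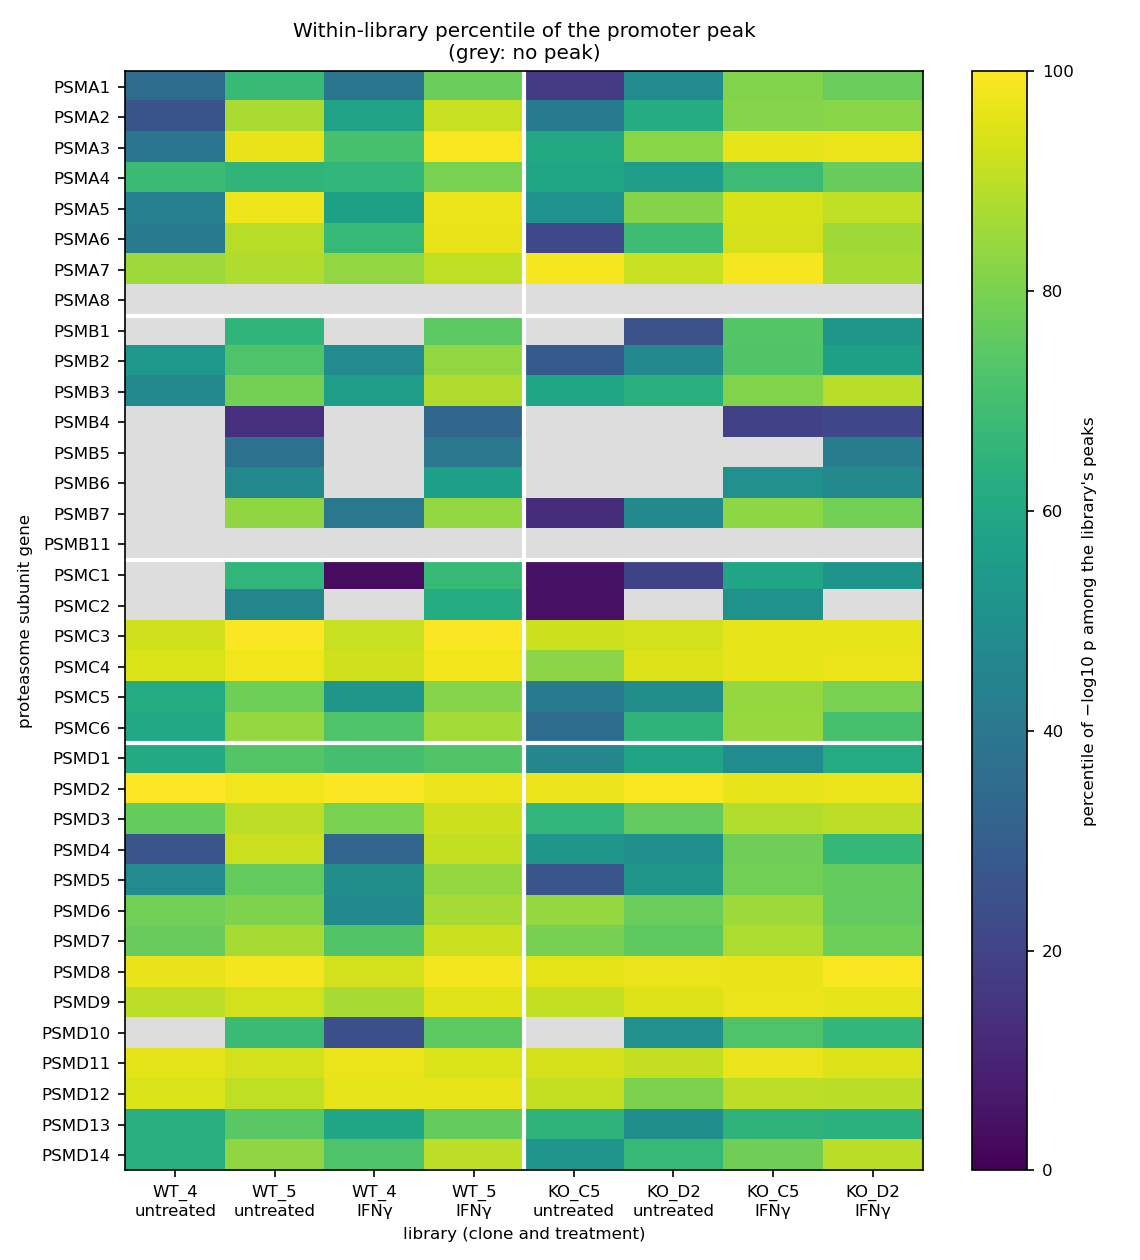
Rank of the promoter peak of each of the 36 genes (rows) in each of the 8 libraries (columns), as the percentile of its −log10 p among all peaks of that library. Grey cells have no peak. The gaps lie in PSMA8, 6 of the 8 PSMB genes, PSMC1, PSMC2 and PSMD10, mostly in clone WT_4 and the untreated KO libraries.

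The number of the 36 genes with a peak was 26 (WT_4) and 34 (WT_5) in untreated WT, 29 (KO_C5) and 30 (KO_D2) in untreated KO, 29 (WT_4) and 34 (WT_5) in WT with IFNγ, and 33 in each KO clone with IFNγ. The share of all protein-coding genes with a promoter peak ran from 57.8% to 68.3%. Clones WT_4 and WT_5 thus differed by 8 subunit genes when untreated, while all genes stood at 63.4% and 65.4%. The length of the list ordered these counts in part. Lists of 24727 peaks (KO_D2 with IFNγ) or more held 33 or 34 subunit genes, and all shorter lists held fewer. Among the shorter lists, untreated KO_D2 had the shortest (16730 peaks) and 30 subunit genes, and untreated WT_4 had 21715 peaks and 26. The part of list length in the differences between clones and treatments was not tested.

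The catalytic subunits were followed individually, with clone WT_4 given before WT_5 and KO_C5 before KO_D2 throughout. Values are the fold enrichment over the local background at the summit. PSMB5, the chymotrypsin-like subunit, had a peak in 3 libraries, at 7.25 in untreated WT_5, 6.56 in WT_5 with IFNγ and 8.18 in KO_D2 with IFNγ. PSMB6, the caspase-like subunit, had a peak in 4, at 10.2 in untreated WT_5, 12.4 in WT_5 with IFNγ, and 12.1 and 9.41 in the KO clones with IFNγ. PSMB7, the trypsin-like subunit, lacked a peak only in untreated WT_4. Its fold was 36.6 in untreated WT_5, 11.1 and 44.1 in WT with IFNγ, 5.47 and 13.5 in untreated KO, and 34.1 and 23.6 in KO with IFNγ. All 3 genes had a peak in both WT_5 libraries and none in untreated WT_4, and no library without IFNγ outside WT_5 held a PSMB5 or PSMB6 peak.

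The immune counterparts were open more widely. PSMB9 and PSMB10 had a peak in all 8 libraries, with folds of 16.9 to 63.6 for PSMB9 and 8.46 to 44.3 for PSMB10. PSMB8 had a peak in 7, from 4.03 in untreated KO_D2 to 30.9 in WT_5 with IFNγ, and none in untreated KO_C5. In the 4 libraries where PSMB6 had a peak, the PSMB9 fold was higher. PSMB7 and PSMB10 were close, with PSMB7 higher in untreated WT_5 and in KO_C5 with IFNγ and lower in the other 5 libraries where both had a fold, although in WT_5 with IFNγ the folds were 44.1 and 44.3. These differences were not tested, since folds of different genes rest on different local backgrounds. Starts of neighbouring genes were searched only around the constitutive genes. A peak counted for an immune counterpart may therefore belong to a neighbour, and PSMB8 and PSMB9 themselves overlap on chromosome 6.

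**Figure D2:**
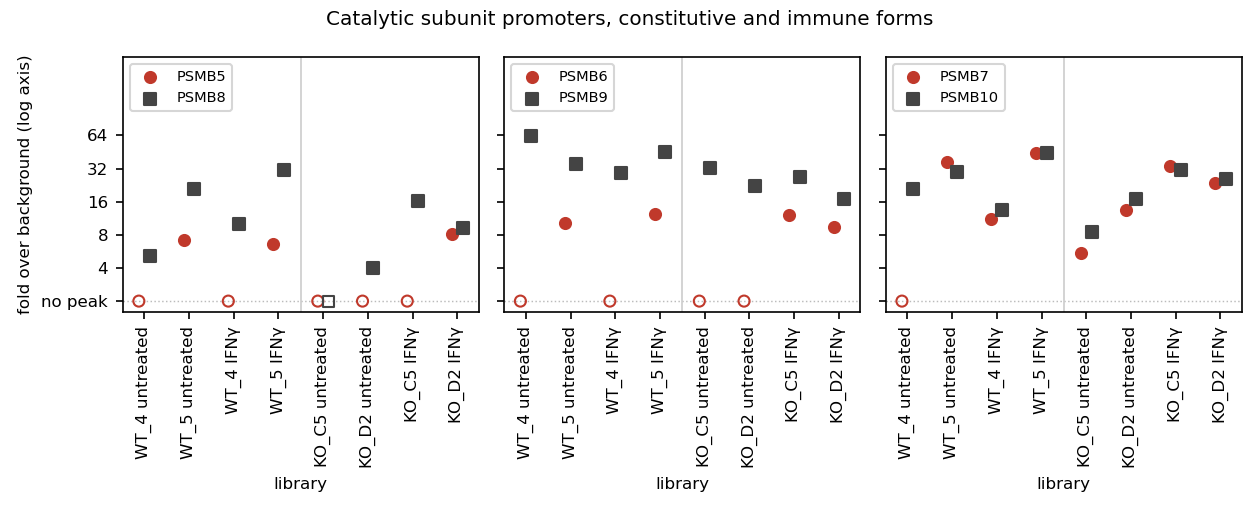
Fold enrichment over the local background (log axis) at the promoter peaks of the constitutive catalytic subunits (red circles) and their immune counterparts (dark squares) in each library. Open symbols on the dotted line have no peak. PSMB5 and PSMB6 lack peaks in 5 and 4 libraries, and PSMB9 and PSMB10 have one in all 8.

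The other β subunits with gaps followed the same clone. PSMB4, a noncatalytic subunit, had a peak of 4.68 in untreated WT_5, 6.36 in WT_5 with IFNγ, and 4.88 and 5.00 in KO with IFNγ. PSMB1, another noncatalytic subunit, had folds of 15.5 and 22.9 in WT_5 without and with IFNγ, 8.39 in untreated KO_D2, and 24.6 and 10.8 in KO with IFNγ. The PSMB4 peaks were weak wherever they were called, at percentiles of 14.0 to 33.0, while those of PSMB1 spanned 24.9 to 74.6. PSMB2 and PSMB3 were open everywhere. PSMB2 stood at percentiles 53.2 and 72.6 in untreated WT, 48.1 and 83.7 in WT with IFNγ, 28.1 and 46.9 in untreated KO, and 72.7 and 56.7 in KO with IFNγ. PSMB3 stood at 47.1 and 79.3, 55.9 and 88.0, 59.2 and 63.5, and 81.2 and 89.2 in the same order. In both genes WT_5 ranked above WT_4 in each treatment.

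Outside the β ring, gaps were seen in 3 genes. PSMC1, an ATPase subunit, lacked a peak only in untreated WT_4, and its fold was 17.2 in untreated WT_5, 4.29 and 20.0 in WT with IFNγ, 4.61 and 7.75 in untreated KO, and 17.7 and 11.9 in KO with IFNγ. PSMC2, another ATPase, had a peak in untreated WT_5 (8.70), untreated KO_C5 (4.30), WT_5 with IFNγ (14.4) and KO_C5 with IFNγ (11.0). PSMD10, also called gankyrin, a chaperone of regulatory particle assembly, lacked a peak in untreated WT_4 and untreated KO_C5. Its folds were 19.8 in untreated WT_5, 7.40 and 28.8 in WT with IFNγ, 17.2 in untreated KO_D2, and 30.4 and 19.7 in KO with IFNγ. In all of these the value in WT_5 was above that in WT_4 or WT_4 had no peak. A peak in both WT_5 libraries and in neither WT_4 library was seen for 5 of 36 genes (PSMB1, PSMB4, PSMB5, PSMB6 and PSMC2), against 4.03% of all genes, and the reverse for 0 of 36, against 0.426%.

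Gaps were then set against genotype and IFNγ. A peak in every WT and no KO library was found for 0 of 36 genes (0.235% of all genes), in every KO and no WT library for 0 (0%), and in every IFNγ and no untreated library for 0 (0.025%). With shares this low in all genes, counts of 0 say nothing particular about the 36. Within the KO clones, PSMB4 and PSMB6 had a peak in both IFNγ libraries and in neither untreated library (2 of 36, against 2.27% of all genes, a count made after their values were seen).

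Position relative to the TSS was compared, since a gene can have starts far apart. Of the 34 genes with any peak, 32 had a median summit upstream of the nearest TSS, and the median positions ran from -171.5 bp (PSMC4, upstream) to 9.5 bp (PSMD11, downstream). Median peak widths were 275.5 to 925.5 bp. The peaks of PSMC2 lay farthest from the canonical TSS. They sat at a median of -2856 bp from it, at a start shared with the divergent gene DNAJC2, and 0 libraries had a peak at the canonical TSS. The PSMB5 peaks had a median summit of -375 bp from its canonical TSS. Their summits lay at -375 bp in untreated WT_5, -1 bp in WT_5 with IFNγ and -378 bp in KO_D2 with IFNγ. The RefSeq start that gave the PSMB5 sequence above lies at -320 bp from that TSS. PSMA1, an α subunit, had a peak at its canonical TSS in 6 libraries. In untreated WT_4 and untreated KO_C5 the only peak was at a distant alternative start next to PDE3B. A coding gene with a TSS within 500 bp on the opposite strand was present for 7 of the 36 genes (PDE3B at PSMA1, MRPL32 at PSMA2, SS18L1 at PSMA7, DNAJC2 at PSMC2, FTSJ3 at PSMC5, ATG4A at PSMD10 and SIRT3 at PSMD13), and a peak at such a shared start cannot be assigned to 1 of the genes. For PSMA1 this touches only the untreated WT_4 and untreated KO_C5 peaks.

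Ranks were compared next, as the percentile of −log10 p within a library. This rank also moves with the length of the list. Over all genes with a peak in every library, the median percentile rose with list length. It was 70.1 in the shortest list (untreated KO_D2) and 86.4 in the longest (WT_5 with IFNγ). The part of list length in the rank differences below was not tested. The highest mean percentiles over 8 libraries were those of PSMD2 (97.9), PSMD8 (97.0), PSMC3 (95.2), PSMD11 (94.5) and PSMC4 (94.1). PSMD2 is a scaffold of the regulatory particle base, and its percentile was 99.6 and 97.9 in untreated WT, 99.6 and 97.2 in WT with IFNγ, 96.9 and 98.9 in untreated KO, and 96.3 and 97.2 in KO with IFNγ. PSMD8, a lid subunit, stood at 96.7 and 98.4, 93.1 and 98.4, 96.0 and 97.2, and 96.9 and 99.0 in that order. These promoters were near the top of every list, with little room for a difference in rank.

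The lowest ranks among PSMD genes with a peak in all libraries were those of PSMD4 (61.2) and PSMD5 (61.5). PSMD4, a ubiquitin receptor, stood at 26.5 and 92.1 in untreated WT, 32.8 and 90.9 in WT with IFNγ, 52.8 and 50.0 in untreated KO, and 78.3 and 66.4 in KO with IFNγ. PSMD5, an assembly chaperone, stood at 48.1 and 76.3, 49.2 and 84.1, 26.5 and 53.1, and 78.6 and 76.2. Both WT_5 libraries were far above both WT_4 libraries for PSMD4, with the KO libraries between.

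Of the 4 PSMC ATPases with a peak in all libraries, PSMC3 and PSMC4 ranked highest. PSMC3 stood at 92.6 and 99.4 in untreated WT, 91.7 and 99.2 in WT with IFNγ, 92.4 and 93.2 in untreated KO, and 96.3 and 96.5 in KO with IFNγ. PSMC4 stood at 94.5 and 97.7, 92.7 and 97.8, 82.4 and 94.9, and 96.3 and 97.0. PSMC5 and PSMC6 ranked lower and varied more. PSMC5 stood at 61.7 and 77.9, 52.8 and 81.7, 41.5 and 49.5, and 84.3 and 80.0. PSMC6 stood at 59.5 and 84.1, 72.5 and 86.2, 35.4 and 65.1, and 84.5 and 70.7. For PSMC5 the untreated KO libraries were the lowest and the IFNγ KO libraries among the highest.

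Of the α subunits, PSMA7 had the highest mean percentile, 90.5. It stood at 85.5 and 88.1 in untreated WT, 84.0 and 90.5 in WT with IFNγ, 98.5 and 91.8 in untreated KO, and 98.5 and 87.1 in KO with IFNγ. PSMA3 and PSMA2 differed more between the WT clones. PSMA3 stood at 39.4 and 96.6, 70.9 and 99.2, 60.6 and 82.2, and 96.4 and 97.2. PSMA2 stood at 25.9 and 87.3, 57.7 and 91.6, 41.5 and 62.0, and 82.0 and 82.1. PSMA1 had the lowest mean of the 26 genes with a peak in all libraries, 55.5, and stood at 35.4 and 67.9, 39.4 and 77.6, 16.9 and 48.1, and 81.1 and 77.3, with the 2 values from the distant start noted above being those of untreated WT_4 and KO_C5. For PSMA1, PSMA2 and PSMA3 the lowest values were those of untreated WT_4 or untreated KO_C5.

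The WT clones were then compared with each other. The percentile was higher in both WT_5 libraries than in both WT_4 libraries for 22 of 26 genes with a peak in all libraries, against 55.7% of all such genes, and the reverse held for PSMD2 and PSMD11 (8.38% of all). By fold the first order held for 14 of 26 against 20.3%, and the reverse for PSMD1 and PSMD2 (10.2% of all). The median percentile of the 26 genes was 63.0 in untreated WT_4 and 87.7 in untreated WT_5, where that of all 10217 genes was 77.0 and 83.0. With IFNγ it was 70.6 in WT_4 and 91.3 in WT_5, against 73.4 and 86.4. In KO it was 59.9 and 72.1 untreated and 86.6 and 86.3 with IFNγ, against 73.7 and 70.1, and 81.4 and 79.2. The 26 genes thus ranked below all genes in both WT_4 libraries and in untreated KO_C5, and above them in the other 5.

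**Figure D3:**
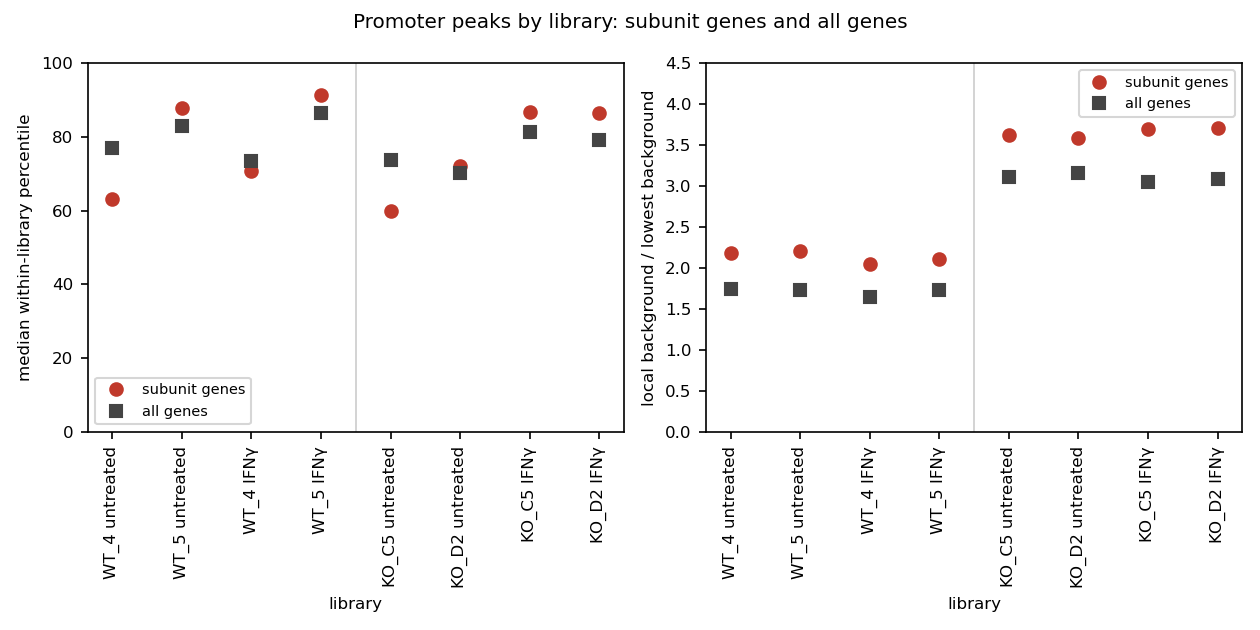
Median percentile of the promoter peak (left) and median local background at the summit over the lowest local background of the library (right), for the 26 subunit genes (red circles) and all 10217 genes (dark squares) with a promoter peak in every library. On the left the red circles range from 59.9 to 91.3, and on the right all 4 KO libraries lie above all 4 WT libraries for both sets.

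On the log2 fold scale, centred on each library's median over the 10217 genes, the mean of the WT_5 libraries minus that of the WT_4 libraries had a median of 0.41 over the 26 genes and of -0.12 over all genes. The difference was 2.59 for PSMD4, 2.25 for PSMA5, 2.13 for PSMA3, 1.98 for PSMA2 and 1.87 for PSMA6, and these 5 lay among the highest 5% of all genes (above 1.36). PSMD2, at -1.02, lay among the lowest 5% (below -0.87). The difference between IFNγ and untreated libraries of the KO clones, which uses none of the same libraries, had a median of 0.22 over the 26 genes and -0.15 over all genes. Its 5 highest values ran from 1.09 in PSMD5 to 1.46 in PSMA6, with PSMA1 (in part from its distant start), PSMA3 and PSMC5 between. These 5 lay among the highest 5% of all genes (above 0.91). Its lowest value was -0.56 in PSMD2. Across the 26 genes the 2 differences had a Pearson's r of 0.68, and across all 10217 genes 0.69, a description over genes that share libraries, depth and base composition.

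**Figure D4:**
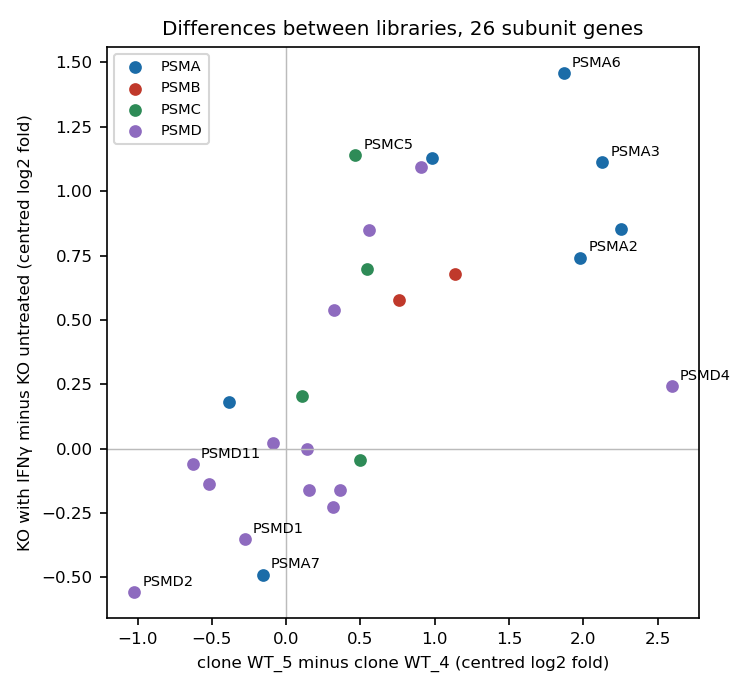
Difference between WT clones (horizontal, WT_5 minus WT_4, mean of 2 libraries each) against the difference between IFNγ and untreated KO libraries (vertical), both in centred log2 fold, for 26 subunit genes by family. PSMA2, PSMA3, PSMA5 and PSMA6 are high on both, and PSMD2 is low on both. PSMD4, the highest on the horizontal axis (2.59), stands at 0.24 on the vertical.

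Genotype was tested with limma on the clone means of centred log2 fold. Of the 10217 genes 0 (0%) and of the 26 subunit genes 0 passed an adjusted p of 0.05, while 591 genes and 3 subunit genes had an unadjusted p under 0.05. The median KO minus WT difference was -0.09 over the subunit genes and 0.01 over all genes. The 3 subunit genes were PSMD6, PSMA7 and PSMD9. PSMD6, a lid subunit, had uncentred folds of 34.4 and 20.3 in untreated WT and 10.6 and 34.6 in WT with IFNγ. In KO they were 44.6 and 31.4 untreated and 46.1 and 25.3 with IFNγ, so that the uncentred folds of the genotypes overlapped. On the centred log2 fold that was tested, PSMD6 stood at -0.21 and -0.56 in untreated WT and -1.27 and -0.29 in WT with IFNγ. In KO it stood at 0.93 and 0.62 untreated and 0.73 and 0.36 with IFNγ, without overlap. Its KO minus WT difference was 1.25 ± 0.28 (SE, limma, unadjusted p = 0.0039, adjusted p = 0.778), but -0.061 on summit pileup. The local background at the PSMD6 summit was 2.05 and 3.53 in untreated WT and 2.02 and 2.33 in WT with IFNγ. In KO it was lower, at 1.04 and 0.913 untreated and 1.17 and 1.33 with IFNγ, and its part was not tested. The difference was 1.28 ± 0.34 for PSMA7 and 0.76 ± 0.26 for PSMD9, an assembly chaperone, with the same adjusted p of 0.778, and on summit pileup it was 0.33 and 0.12. By the uncentred fold, every KO library was below every WT library for 5 of 26 genes (PSMC4, PSMD1, PSMD2, PSMD12 and PSMD13), against 23.6% of all genes. The share was no larger than in all genes, so the count says nothing particular about the 26. PSMD1, a scaffold of the regulatory particle, is given only as an example of the 5. Its folds were 23.2 and 22.2 in untreated WT and 25.0 and 22.03 in WT with IFNγ. In KO they were 11.2 and 16.5 untreated and 10.1 and 12.8 with IFNγ. The local background at the summits moved with genotype. Its median over the 26 genes, divided by the lowest local background of the library, averaged 2.14 ± 0.0275 for WT clones and 3.65 ± 0.00892 for KO clones, and over all genes 1.71 ± 0.027 and 3.10 ± 0.0275 (SD over 2 clones a genotype), and its part in the lower KO folds was not tested. The percentile was lower in every KO than in every WT library for 0 of 26 genes, against 6.78% of all genes.

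IFNγ was tested next over all 8 libraries. Again 0 of 10217 genes (0%) and 0 of 26 subunit genes passed, with 281 genes and 2 subunit genes at an unadjusted p under 0.05. With the clone as a block, which pairs the untreated and treated library of each clone, 1 gene and 0 subunit genes passed, and 1513 genes and 8 subunit genes had an unadjusted p under 0.05 (lowest adjusted p of a subunit gene = 0.238, limma). The median difference, IFNγ minus untreated, was 0.31 over the subunit genes and -0.08 over all genes, and it was above 0 for 16 of 26 against 38.3% of all genes. PSMA1 had a difference of 0.86 ± 0.36 and PSMC5 of 0.54 ± 0.23 (SE, limma, adjusted p = 0.865 for each). The untreated WT_4 and KO_C5 values of PSMA1 come from its distant start, here and in the counts that follow. In PSMC5 the uncentred folds were 20.8 and 21.6 in untreated WT and 12.9 and 29.4 in WT with IFNγ. In KO they were 9.57 and 13.3 untreated and 32.9 and 21.5 with IFNγ. The uncentred IFNγ value was the higher one in WT_5 and both KO clones and the lower one in WT_4. On the centred log2 fold that was tested, PSMC5 stood at -0.94 and -0.47 in untreated WT and -0.99 and -0.53 in WT with IFNγ. In KO it stood at -1.29 and -0.62 untreated and 0.25 and 0.13 with IFNγ. The IFNγ value was thus slightly lower in both WT clones and higher in both KO clones. The uncentred fold was higher after IFNγ for 10 of 26 genes in WT_4 (9.3% of all genes), 25 in WT_5 (94.8%), 21 in KO_C5 (52.3%) and 14 in KO_D2 (36.9%). The 10 genes in WT_4 were PSMA1, PSMA2, PSMA3, PSMA5, PSMA6, PSMB3, PSMC6, PSMD1, PSMD4 and PSMD14, 5 of them α subunits. In PSMA2 the WT_4 fold was 6.55 untreated and 16.4 with IFNγ, and in PSMA6 it was 11.5 and 23.9.

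The difference between genotypes in the IFNγ effect was tested as an interaction. Of 10217 genes 0 (0%) and of 26 subunit genes 0 passed, with 84 genes and PSMC5 alone at an unadjusted p under 0.05 (1.19 ± 0.47, SE, limma, adjusted p = 1.00). The median was 0.06 over the subunit genes and -0.08 over all genes.

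Other genes of the pathway were compared by the same measures. Of 21 genes, 19 had a promoter peak in all 8 libraries, and 0 of these 19 passed any of the 3 tests. The exceptions were PSMB8 (7 libraries) and SEM1, a small subunit of the regulatory particle (4 libraries, with folds of 14.3 and 13.6 in WT_5 and of 8.22 and 6.98 in KO with IFNγ). SEM1 thus had the library pattern of PSMB4 and PSMB6. All 5 activator and inhibitor genes (PSME1 to PSME4 and PSMF1), all 6 assembly factor genes and all 4 genes that control proteasome expression had a peak in every library. ADRM1, a ubiquitin receptor, ranked between percentiles 98.6 and 99.9. Of the control genes, NFE2L1, the transcription factor that raises proteasome genes when the proteasome is impaired, ranked at 78.2 to 98.2, and DDI2, the protease that activates it, at 83.5 to 99.3.

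Base composition was compared, as it was not used to choose the genes. The set of RefSeq promoters used here held 31 of the 36 genes and lacked PSMA7, PSMB1, PSMB6, PSMB7 and PSMD4. PSMB1, PSMB6 and PSMB7, which had gaps, are thus left out of this comparison. The median content of G and C in the 250 bases was 60.8% over the 31 and 62.4% over 15315 promoters. It was 61.2% over the 24 genes with a peak in all libraries, the lowest being 50.8% (PSMC5), and 45.6% over the 5 with a peak in 1 to 7 libraries. Of those 5, PSMC2 (43.6%) has its peaks at another start, and PSMD10 (62%) was above the median of the 24. For the 24 genes, this content and the WT_5 minus WT_4 difference had a Pearson's r of -0.55, and -0.32 over 8239 genes. With the IFNγ minus untreated difference in KO, r was -0.61 and -0.34. These are descriptions over genes that share libraries and depth. PSMD2 (74.4%) and PSMD11 (73.2%) had the highest content and the lowest WT_5 minus WT_4 differences.

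**Figure D5:**
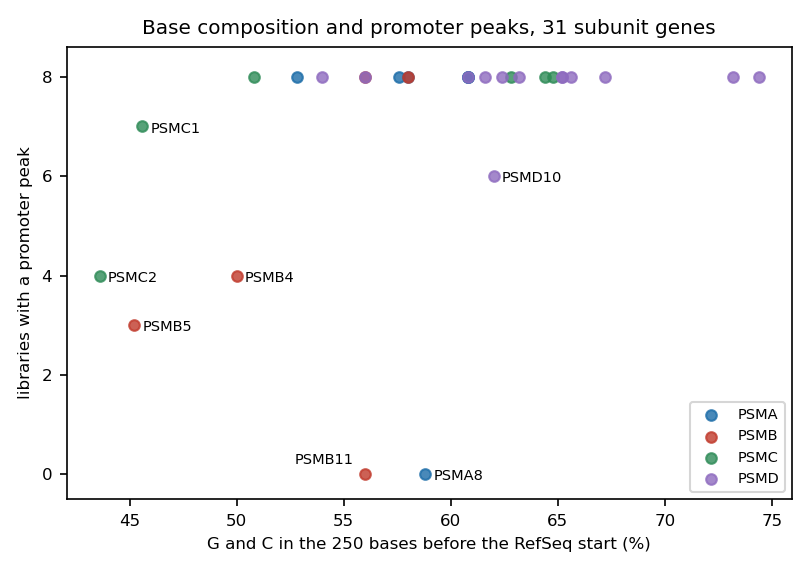
Content of G and C in the 250 bases before the RefSeq start (horizontal) against the number of libraries with a promoter peak (vertical) for the 31 subunit genes in the set of RefSeq promoters used. PSMB5, PSMC1, PSMC2 and PSMB4 lie at 50% or less, and the genes with a peak in 8 libraries lie between 50.8% and 74.4%.

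Motifs were searched in the same 250 bases on both strands. The ETS motif CCGGAAG was in 25.8% of the 31 subunit promoters and 11.9% of all, and the NF-Y motif CCAAT in 48.4% and 34.8%. Both are common in housekeeping promoters. The antioxidant response element, which NFE2L1 is known to bind, was found as TGACNNNGC in 16.1% and 11.5% and as TGAGNNNGC in 25.8% and 15.6%. The SP1 motif GGGCGG was in 61.3% and 56.7%, and TATAAA in 16.1% and 9.24%. The hexamer TTAGGG, to which ZBTB48 binds at telomeres, was in 16.1% and 7.84% (PSMA6, PSMC1, PSMD5, PSMD8 and PSMD9), and GTGAGT, a control hexamer, in 12.9% and 8.51%. The YY1 motif AAGATGGC was in 3.23% and 1.38%. In the sequences above, PSMB5 was the 1 subunit promoter with AAGATGGC, at bases 139 to 132 before the start, and it overlapped a match to TGAGNNNGC at bases 133 to 125. PSMC1 had TTAGGG at bases 33 to 28, and PSMD2 had GGGCGG 3 times. PSMD10 had CCAAT at bases 76 to 72, and no motif of the list was found in PSMB4. A match is a sequence only and was not tested for binding.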

How the data were processed

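FAIRE-seq peak lists of 8 U2OS libraries were used. Per the submitters' processing notes and the study's methods, the authors trimmed reads, aligned them to GRCh38 with Bowtie2 2.2.5, filtered with SAMtools 1.14 and called peaks per library with MACS2 2.2.7.1; the lists precede the step on replicates. Use of input as control is not given in the sources used here. The deposited fold enrichment is a ratio to a local background, and the deposited −log10 p is a Poisson value. The deposited score and the summit offset were read only to check the format or place the summit. Peaks were assigned to GENCODE 44 TSSs within 500 bp with Python 3.11.15. Pileup and local background were solved from fold and −log10 p, since read depth is not in the lists, and 99.9% to 100% of peaks per library had a solution. Log2 folds, centred on the library median, were tested with limma 3.58.1 in R 4.3.3 (Benjamini-Hochberg over all genes with a peak in 8 libraries, no pseudocount). Genotype used clone means; IFNγ and interaction used 4 groups. Code was tested on simulated data. RefSeq promoters (first entry per symbol) gave sequences.

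Named genes were members without a peak in a library, PSMB5, PSMB6 and PSMB7, those with a test result, and the 2 highest and 2 lowest ranks per family. Other members, such as PSMD1, are named in counts or as examples. The members and lists were chosen with earlier results of these data known. Per the labels, each clone pairs 1 untreated with 1 IFNγ library (correlation of deviations 0.73 in WT and 0.40 in KO). The p-values measure only the spread between these clones, and no fold can be given where a peak is missing. One gene of the marker list is not reported here.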

Additional observations from a re-analysis of the deposited data

How the results depend on the processing

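The count of 26 genes with a peak in all libraries was 25 to 28 under all 18 alternatives (stricter q or fold, equal list lengths, other windows, starts or symbols, and omitted replicates), and 26 to 28 without any 1 replicate. Added after seeing the data, the canonical TSS alone gave 25, and leaving out both WT_4 libraries gave 28. For genotype, 16 genes were called on uncentred fold, where the median of all genes was -0.57 and of the subunit genes -0.66, and 0 in the other settings. With the replicate number as a block 0 genes were called for genotype (lowest adjusted p = 0.0523, limma). PSMA7 had this lowest value, and PSMD6 and PSMD9 had adjusted p = 0.0578 and 0.0592 in the same limma fit. However, WT and KO replicate numbers pair no clones (correlations 0.45 untreated and -0.13 with IFNγ). For IFNγ, 1 gene was called on uncentred fold and 1 with the clone as replicate block. For the interaction 0 genes were called in any setting, the clone block included. Leaving out any 1 replicate called 0 genes in each of the 3 tests. The median difference of the subunit genes between genotypes was -0.16 to 0.15 without 1 replicate, turning above 0 without KO_untreated replicate 1 (0.15) or WT_IFNγ replicate 1 (0.08), and was 0.07 on summit pileup. That for IFNγ was 0.15 (without WT_untreated replicate 1) to 0.38. That for the interaction was -0.17 to 0.47, turning below 0 without KO_untreated replicate 1 (-0.17), WT_IFNγ replicate 1 (-0.12) or WT_untreated replicate 2 (-0.11). No subunit gene was called in any of the 51 fits. PSMD6 turned from 1.25 to -0.061 when genotype was tested on summit pileup, and the cause was not tested. On the same measure PSMA7 fell from 1.28 to 0.33 and PSMD9 from 0.76 to 0.12. These and the other 3 single-gene differences with an unadjusted p under 0.05 kept their sign. Depth limits what the lists show: a missing peak means that none was called, not that the promoter was closed.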
